A study of Mus musculus with 2 samples.

Results

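HOX genes encode the homeodomain transcription factors that give cells along the head-to-tail axis and along the limb and genital axes their position. The mouse genome carries 39 of them in the 4 clusters Hoxa, Hoxb, Hoxc and Hoxd, and all 39 were represented among the 30011 gene names of the array. They were taken as every gene spot whose gene name in the scanner files is Hox, a cluster letter from a to d and a number, which gave 180 spots per array from 45 probes of 60 bases, each printed 4 times. The Hoxa cluster supplied 11 genes, Hoxb 10, Hoxc 9 and Hoxd 9, with 33 genes on 1 probe and 6 genes on 2 probes. By the probe coordinates in the files (mouse build mm9), the Hoxa probes lay on chromosome 6, Hoxb on chromosome 11, Hoxc on chromosome 15 and Hoxd on chromosome 2.

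Within a cluster the genes lie side by side in the same orientation, numbered by their likeness to each other across clusters, and genes with the same number are called paralogues. Low numbers sit at the 3′ end and are used early and towards the head, high numbers sit at the 5′ end and are used late and towards the tail. In the urogenital system the Hox11 paralogues Hoxa11, Hoxc11 and Hoxd11 are known for their joint requirement in the metanephric mesenchyme, Hoxb7 for its expression in the nephric duct and its branches, and Hoxa13 and Hoxd13 for the urogenital sinus and the genital tubercle. HOX proteins bind DNA together with the TALE-class homeodomain proteins PBX, MEIS and PKNOX, and their clusters are kept silent by Polycomb complexes and active by Trithorax complexes.

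The study asked which transcripts differ in ureters whose mesenchymal lineage lacks the FGF receptors Fgfr1 and Fgfr2. Mutant embryos (Fgfr1/2cDKO) carried Tbx18(cre/+), a Cre knocked into one Tbx18 allele, together with Fgfr1(fl/fl) and with Fgfr2(fl/fl). Controls are labelled Fgfr1(fl/?) and Fgfr2(fl/?) with no Cre allele listed, and both groups were on the NMRI strain. Ureters were taken at E15.5 and kept for 6 days as explants on transwell membranes. From each sample, 150 ng of total RNA was labelled for 2 two-colour Agilent arrays, each holding 1 mutant and 1 control RNA (n = 2 mutant and 2 control samples). On array 1, from embryos labelled male, the mutant RNA carried Cy5; on array 2, from embryos labelled female, it carried Cy3. Effects of array, sex and dye orientation cannot be told apart, and both arrays lay on 1 slide and in 1 scan. Tbx18 marks the progenitors of the ureteric mesenchyme, so a Tbx18-driven Cre recombines there and in other Tbx18-expressing cells, whereas the urothelium does not descend from them. The labels tell neither how many embryos stand behind an RNA nor whether the pairs came from separate litters, so all p-values reflect the spread between these 2 pairs alone, and that spread may be technical.

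Across all gene spots, 70.3% and 73.3% were well above background in the mutant channel of arrays 1 and 2, against 78.3% and 74.5% in the control channel, and no gene spot was saturated. In limma's moderated test of the mutant over control log2 ratios against 0, 836 of 22070 tested genes passed a Benjamini-Hochberg adjusted p of 0.05, which is 3.79% of them, with 389 higher (1.76%) and 447 lower (2.03%) in mutant RNA. The 3 Fgfr1 probes had mean log2 ratios from -0.54 to -0.33 and the 2 Fgfr2 probes 0.56 and 0.76, but the sources used here do not give the floxed exons, so these probes cannot check the genotype.

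The array tells the HOX genes apart by 60-base probes, and because all of them share the homeobox, the letters of a probe decide how far it can be confused with a paralogue. A probe for Hoxc11 that lies in the homeobox itself is printed to show this, from the array's design, at chr15:102787022-102787081 on the plus strand of mm9. Capitals mark the codons for the start of the recognition helix, the part of the homeodomain that contacts DNA.
Hoxc11: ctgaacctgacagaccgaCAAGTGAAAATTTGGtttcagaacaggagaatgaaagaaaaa
Over all pairs of probes for different HOX genes, the longest run of bases in common was 11 of 60, found between Hoxc11 and Hoxc12 and between Hoxc11 and Hoxb4. Probes were compared with each other only, not with the transcripts of paralogues. Whether a probe also binds a paralogue's transcript was therefore not tested.

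Nearly the whole HOX complement was measurable in the cultured ureters. Of the 39 genes, 35 were well above background in all 4 channels, namely all 11 Hoxa genes, 9 of 10 Hoxb genes, 7 of 9 Hoxc genes and 8 of 9 Hoxd genes. The other 4 were not tested, since a test required a signal well above background in the mutant channel of each array or in the control channel of each array. Hoxb13, a gene of the tail end and of the prostate, Hoxc8, a gene of the thoracic body axis, and Hoxc12 were not well above background in any channel. Hoxd1, at the 3′ end of its cluster, reached that level only in the mutant channel of array 2. Since all 35 tested genes were measured in every channel, none of them entered the test through 1 genotype alone.

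Of the 35 tested HOX genes, 6 were higher in mutant RNA and 0 were lower at a Benjamini-Hochberg adjusted p of 0.05 in limma's fit over all genes. That is 17.1% of the tested HOX genes, beside 3.79% of all tested genes called in either direction and 1.76% called higher. The 6 were Hoxb3, Hoxb8 and Hoxb9 in the Hoxb cluster and Hoxd3, Hoxd11 and Hoxd13 in the Hoxd cluster. At an unadjusted p of 0.05, 21 of 35 HOX genes passed (60%), beside 4955 of all 22070 tested genes (22.5%). With median centring, 8 of 35 HOX genes and 5584 of all 22070 genes did, so the HOX share was no higher in that setting. No test of the HOX genes as a list was made. The calls depended on the processing: 0 HOX genes passed with the scanner software's ratios, with median centring or with separate channels, 1 passed with the authors' value table and 11 with a variance trend. Of all 22070 tested genes, 10, 0, 3, 170 (0.77%) and 1415 (6.41%) passed in these settings, in this order. In RNA of a whole explant, fewer cells of a type and less RNA per cell cannot be told apart.

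The shift was small and spread over most members. The median log2 ratio of the 35 HOX genes was 0.32, a 1.25-fold higher signal in mutant RNA, with a range from -0.21 to 0.99, whereas the median of all tested genes was -0.02. On array 1 the HOX median was 0.30 and on array 2 it was 0.28. A mean ratio above 0 was found for 34 of 35 HOX genes, beside 10154 of all 22070 genes, and ratios above 0 on both arrays for 29 HOX genes (82.9%), beside 30.5% of all tested genes. With array-wide median centring in place of intensity-dependent loess normalisation, the median of all genes moved to -0.14 and that of the HOX genes to 0.15, so that 28 of 35 HOX genes lay above 0, 33 lay above the median of all genes, and Hoxa2, Hoxa5, Hoxa9, Hoxa10, Hoxb7 and Hoxc9 turned below 0. Relative to the median of all genes, the HOX median was 0.34 after loess and 0.29 after median centring.

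**Figure D1:**
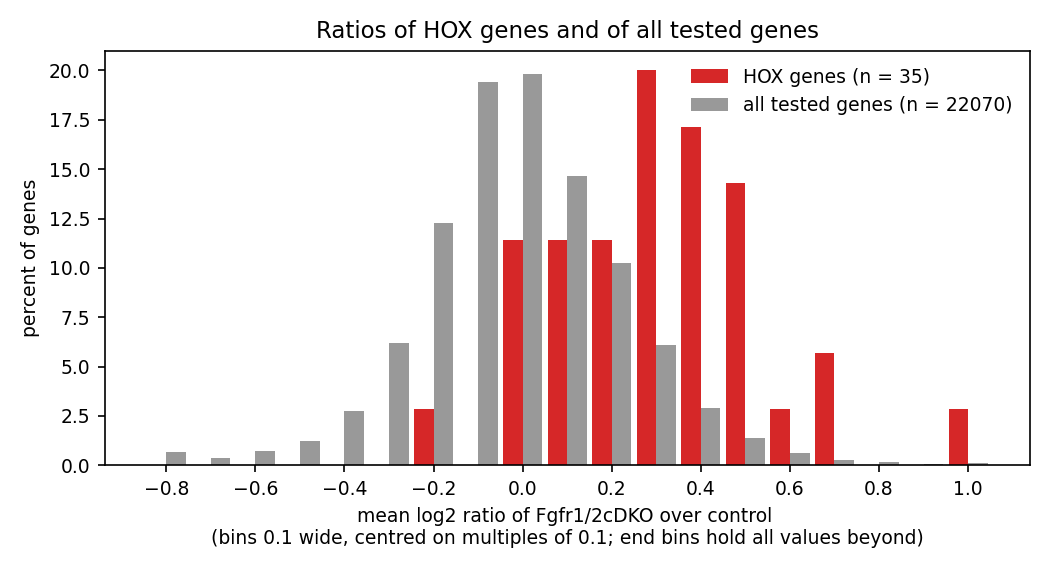
Percent of genes (vertical axis) by mean log2 ratio of Fgfr1/2cDKO over control (horizontal axis, bins 0.1 wide), for the 35 tested HOX genes in red and all 22070 tested genes in grey. The HOX bars reach their highest share at 0.3, with a median of 0.32, whereas the bars of all genes centre near their median of -0.02.

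The 29 HOX genes that did not pass had a median of 0.29 and a range from -0.21 to 0.50. The ratios of the 2 arrays correlated across the 35 HOX genes at Pearson's r = 0.56 and Spearman's rho = 0.49, beside r = 0.52 and rho = 0.48 across all tested genes, where genes share the same arrays and are not independent replicates. The 17 HOX genes with a control signal at or above the median of all tested genes had a median ratio of 0.41, and the 18 with a lower control signal had a median of 0.18. The corresponding medians of all genes were -0.0042 and -0.032. Background correction with an offset pulls ratios of dim probes towards 0, and the part of this in the difference between bright and dim HOX genes was not tested.

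**Figure D2:**
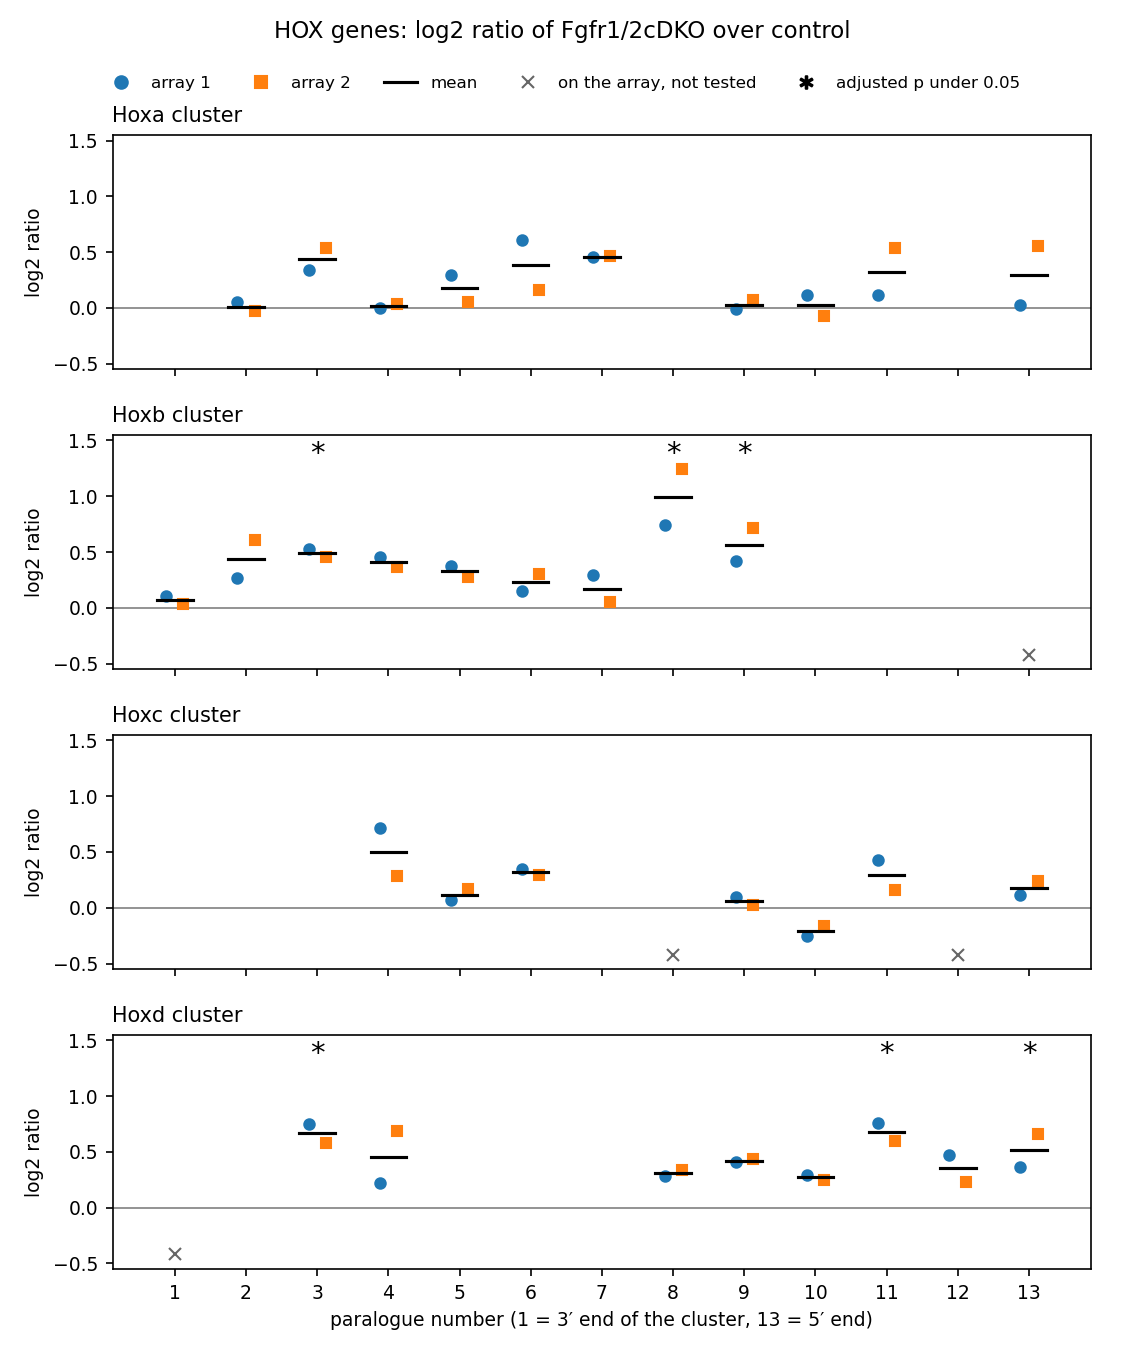
Log2 ratio of Fgfr1/2cDKO over control (vertical axis) of 34 of the 35 tested HOX genes by paralogue number (horizontal axis) in the 4 clusters, with a circle for array 1, a square for array 2 and a bar for their mean. Asterisks mark the 6 genes with an adjusted p under 0.05, and crosses mark the 4 genes on the array that were not tested (their height has no meaning). All 8 Hoxd genes and all 9 Hoxb genes lie above 0 on both arrays, Hoxc10 lies below 0 on both, and among the genes drawn, arrays of opposite sign are found in the Hoxa cluster alone.

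The Hoxb cluster held the HOX gene with the largest ratio after loess normalisation. Hoxb8, whose product is known for work in the haematopoietic lineage and the spinal cord, had normalised log2 signals of 10.91 and 11.68 in mutant RNA on arrays 1 and 2, against 10.17 and 10.44 in control RNA. Both mutant samples lay above both control samples, and the gap was wider on array 2. Array 1 gave a log2 ratio of 0.74 and array 2 one of 1.25, with a mean of 0.99 ± 0.36 (SD, n = 2 arrays), a 1.99-fold higher level (95% confidence interval of the log2 ratio 0.68 to 1.30; limma, Benjamini-Hochberg adjusted p = 0.0156). Hoxb9, known from the patterning of the thoracic skeleton, had log2 signals of 11.28 and 11.57 in mutant RNA, against 10.86 and 10.86 in control RNA. The control samples were nearly equal and both mutant samples lay above them. Its mean log2 ratio was 0.57 ± 0.20 (SD, n = 2 arrays; limma, Benjamini-Hochberg adjusted p = 0.0397), a 1.48-fold higher level.

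Hoxb3, a gene of the hindbrain and pharyngeal region, had log2 signals of 10.49 and 10.703 in mutant RNA, against 9.96 and 10.25 in control RNA. Both mutant samples lay above both control samples. The mean log2 ratio was 0.49 ± 0.05 (SD, n = 2 arrays), with 0.53 on array 1 and 0.45 on array 2 (limma, Benjamini-Hochberg adjusted p = 0.0452). A second Hoxb3 probe gave smaller ratios of 0.37 and 0.22, and Hoxb3 lost its call when the 2 probes were averaged. At the 3′ end of the cluster, Hoxb1, known for the identity of hindbrain segments, had log2 signals of 7.51 and 7.36 in mutant RNA, against 7.40 and 7.32 in control RNA. The mutant and control samples of Hoxb1 overlapped, and the mean log2 ratio of 0.07 did not pass (limma, Benjamini-Hochberg adjusted p = 0.739). The other 5 tested Hoxb genes, Hoxb2 and Hoxb4 to Hoxb7, had mean log2 ratios from 0.17 for Hoxb7 to 0.44 for Hoxb2 and did not pass. Hoxb7, whose promoter is widely used to drive transgenes in the nephric duct and collecting ducts, had ratios of 0.29 and 0.05. Over the 9 tested Hoxb genes the median was 0.41.

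In the Hoxd cluster all 8 tested genes lay above 0 on both arrays, and all 8 had an unadjusted p under 0.05, with 3 passing after adjustment. The corresponding shares of all tested genes were 30.5%, 22.5% and 3.79%. Hoxd11, which acts with Hoxa11 and Hoxc11 in the early kidney, had log2 signals of 12.06 and 12.13 in mutant RNA, against 11.31 and 11.53 in control RNA. Both mutant samples lay above both control samples, and the gap was wider on array 1. The mean log2 ratio was 0.68 ± 0.11 (SD, n = 2 arrays), a 1.60-fold higher level (limma, Benjamini-Hochberg adjusted p = 0.0228). A second Hoxd11 probe gave smaller ratios of 0.30 and 0.34, again above 0 on both arrays. Hoxd3, known for the upper cervical vertebrae, had log2 signals of 9.26 and 9.36 in mutant RNA, against 8.51 and 8.77 in control RNA. The mutant and control samples of Hoxd3 did not overlap, and the mean log2 ratio was 0.67 ± 0.12 (SD, n = 2 arrays; limma, Benjamini-Hochberg adjusted p = 0.0228).

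Hoxd13, the gene at the 5′ end of the cluster and a regulator of digits and external genitalia, had log2 signals of 7.91 and 8.61 in mutant RNA, against 7.54 and 7.95 in control RNA. Here the samples overlapped, since the mutant sample of array 1 lay just below the control sample of array 2, while each mutant sample exceeded the control on its own array. The mean log2 ratio was 0.52 ± 0.21 (SD, n = 2 arrays), at the edge of the threshold (limma, Benjamini-Hochberg adjusted p = 0.0499). Hoxd13 kept its call in 3 of the 10 other settings tried and was above 0 in all of them. The other 5 tested Hoxd genes had mean log2 ratios between 0.27 for Hoxd10 and 0.45 for Hoxd4 and did not pass. Hoxd4 had ratios of 0.22 and 0.69, and Hoxd9, next to Hoxd10 in the cluster, had 0.41 and 0.43. Over the 8 tested Hoxd genes the median was 0.44.

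**Figure D3:**
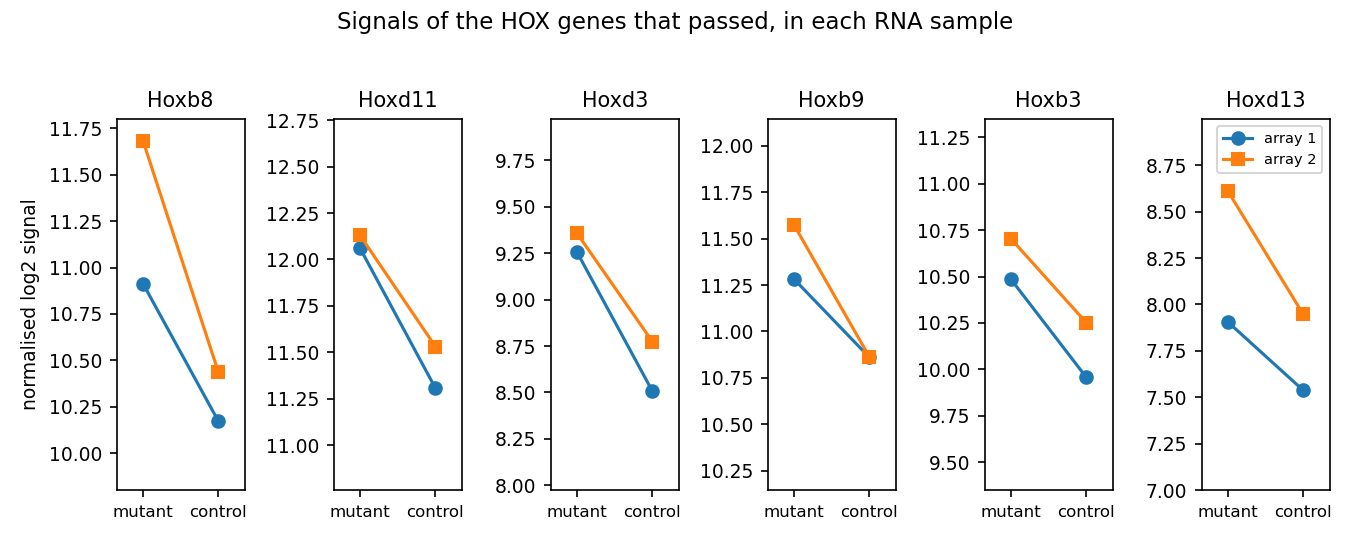
Normalised log2 signal (vertical axis, 2 units high in each panel, panels centred on each gene's own mean) of the 6 HOX genes that passed, in mutant and control RNA, with a line joining the samples of array 1 (circles) and of array 2 (squares). All 12 lines fall towards the control, and for Hoxd13 the mutant sample of array 1 (7.91) lies below the control sample of array 2 (7.95).

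The 4 genes with a promoter sequence among these 6 are shown by the 250 bases before each annotated RefSeq start (assembly GRCm38.p6, all on the plus strand), because these genes shifted in the same direction. The table of promoters covered 22 of the 39 HOX genes, and Hoxd11 has 2 annotated starts in it. The windows are Hoxb8 at chr11:96281655-96281904, Hoxd3 at chr2:74711743-74711992, Hoxd11 at chr2:74679308-74679557 (first start) and chr2:74682073-74682322 (second start), and Hoxd13 at chr2:74667975-74668224. Capitals mark matches on either strand to TATAAA, the letters of the TATA box. They also mark CCAAT, which names the box of those letters, GGGCGG for the GC box, TTTATG for a site type bound by CDX factors, and TGATNNAT for a site type bound by HOX with PBX. Some matches overlap each other.
Hoxb8: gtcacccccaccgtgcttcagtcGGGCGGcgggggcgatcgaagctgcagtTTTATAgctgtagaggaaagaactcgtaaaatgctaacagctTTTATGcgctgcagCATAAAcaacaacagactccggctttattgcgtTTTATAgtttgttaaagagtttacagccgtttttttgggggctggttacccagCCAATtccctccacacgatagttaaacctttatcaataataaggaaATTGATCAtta
Hoxd3: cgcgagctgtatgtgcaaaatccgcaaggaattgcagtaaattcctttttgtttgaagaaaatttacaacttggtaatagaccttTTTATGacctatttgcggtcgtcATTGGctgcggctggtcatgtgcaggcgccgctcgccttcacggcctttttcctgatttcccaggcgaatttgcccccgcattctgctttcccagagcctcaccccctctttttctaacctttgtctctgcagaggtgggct
Hoxd11 first start: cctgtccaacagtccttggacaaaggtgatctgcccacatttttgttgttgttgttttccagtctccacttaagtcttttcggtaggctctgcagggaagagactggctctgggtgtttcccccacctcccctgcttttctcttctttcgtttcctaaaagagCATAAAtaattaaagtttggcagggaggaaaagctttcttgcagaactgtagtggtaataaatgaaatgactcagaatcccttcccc
Hoxd11 second start: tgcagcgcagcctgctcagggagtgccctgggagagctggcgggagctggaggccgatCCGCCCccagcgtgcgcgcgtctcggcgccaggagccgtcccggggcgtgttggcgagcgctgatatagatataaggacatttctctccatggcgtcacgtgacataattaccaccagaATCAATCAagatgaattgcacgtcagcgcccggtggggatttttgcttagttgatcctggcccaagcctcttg
Hoxd13: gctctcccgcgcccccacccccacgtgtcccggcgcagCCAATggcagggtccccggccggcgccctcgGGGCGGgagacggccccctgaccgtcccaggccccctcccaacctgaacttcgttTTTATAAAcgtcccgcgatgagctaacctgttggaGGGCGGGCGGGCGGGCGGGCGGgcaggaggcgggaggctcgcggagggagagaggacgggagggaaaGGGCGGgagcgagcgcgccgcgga
The Hoxb8 window held a match to each of the 5 motifs, with CDX-type sites 157 and 143 bases before the start and a HOX-PBX-type site 11 bases before it. The Hoxd3 window held a CDX-type site 165 bases before the start, and the window before the first Hoxd11 start held one 87 bases before it. The Hoxd13 window had a GC content of 74.4%, with 7 GC boxes counting overlapping ones, whereas the Hoxb8 window had 44.4%. Over the 22 HOX genes with a window, 22.7% held a CDX-type site, beside 10.8% of all 32851 promoters, and 18.2% held a HOX-PBX-type site, beside 7.68% of all promoters. A CCAAT box was found in 63.6% of the HOX genes and 33.8% of all promoters, a GC box in 45.5% and 32.7%, and a TATA box in 18.2% and 12.4%. A HOX gene with several windows was counted once if any window matched, whereas the share of all promoters counts each window on its own. A match describes these letters only, not binding.

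No Hoxa gene passed, beside 3.79% of all tested genes, although all 11 were measured. Hoxa7, a gene of the trunk, came closest, with log2 signals of 11.21 and 11.37 in mutant RNA, against 10.75 and 10.91 in control RNA. The ratio was 0.46 on both arrays, and its adjusted p lay just outside the threshold (limma, Benjamini-Hochberg adjusted p = 0.0509). Hoxa3, known from the thymus, parathyroid and other pharyngeal derivatives, had log2 signals of 11.21 and 11.46 in mutant RNA, against 10.87 and 10.93 in control RNA. Both mutant samples lay above both control samples, with a mean log2 ratio of 0.44 that did not pass (limma, Benjamini-Hochberg adjusted p = 0.0648). A second Hoxa3 probe gave ratios of 0.26 and 0.35, but by the files' coordinates it lies between the Hoxa4 and Hoxa5 probes. Whether it reads the same transcripts as the first was not tested.

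At the 5′ end of the Hoxa cluster the arrays disagreed. Hoxa13, known for the distal limb and the urogenital sinus, had log2 signals of 8.69 and 9.58 in mutant RNA, against 8.67 and 9.02 in control RNA. The mutant and control samples of Hoxa13 overlapped. Its ratio was 0.03 on array 1 and 0.56 on array 2, and a second Hoxa13 probe gave -0.0011 and 0.10, so the ratio of array 2 was not found with that probe. Hoxa11 also had a larger ratio on array 2 (0.53) than on array 1 (0.11). Hoxa2, Hoxa4, Hoxa9 and Hoxa10 had mean log2 ratios between 0.01 and 0.03. A second Hoxa9 probe gave 0.29 on both arrays, against -0.0095 and 0.07 for the brighter probe that represents the gene. The median of the Hoxa cluster was 0.18.

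No Hoxc gene passed either, of 7 tested, beside 3.79% of all tested genes. Hoxc4, at the 3′ end of its cluster, had log2 signals of 10.20 and 10.24 in mutant RNA, against 9.49 and 9.95 in control RNA. The mutant samples lay above both control samples, but the ratios of 0.71 and 0.28 were far apart, and the mean of 0.50 ± 0.30 (SD, n = 2 arrays) did not pass (limma, Benjamini-Hochberg adjusted p = 0.0703). Hoxc6, a gene of the thoracic region, had log2 signals of 11.39 and 11.40 in mutant RNA, against 11.04 and 11.11 in control RNA, with a mean log2 ratio of 0.32 (limma, Benjamini-Hochberg adjusted p = 0.127). Hoxc13, known for its part in hair and nail formation, had log2 signals of 8.52 and 8.48 in mutant RNA, against 8.40 and 8.25 in control RNA. Its mean log2 ratio was 0.17 (limma, Benjamini-Hochberg adjusted p = 0.373), a value that did not pass although the samples did not overlap. Hoxc10 was the only tested HOX gene below 0 on both arrays, with ratios of -0.25 and -0.16 (limma, Benjamini-Hochberg adjusted p = 0.284). Hoxc5, Hoxc9 and Hoxc11 had mean log2 ratios of 0.12, 0.06 and 0.30, and the median of the cluster was 0.17.

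The same genes can be read by paralogue position. Paralogues 1 to 4 had a median log2 ratio of 0.44 over 11 tested genes, 2 of them called. Paralogues 5 to 8 had 0.32 over 10 genes, 1 of them called, and paralogues 9 to 13 had 0.29 over 14 genes, 3 of them called. Of all tested genes, 3.79% were called in either direction and 1.76% were called higher. All 10 tested genes of positions 5 to 8 lay above 0 on both arrays, beside 30.5% of all tested genes. Among single positions, all 3 genes of paralogue 3 (Hoxa3, Hoxb3 and Hoxd3) had an unadjusted p under 0.05, with mean ratios from 0.44 to 0.67. So had all 3 Hox11 paralogues, with 0.32 for Hoxa11, 0.30 for Hoxc11 and 0.68 for Hoxd11. The 2 tested genes of paralogue 8 and the 1 of paralogue 12 also had one, beside 60% of tested HOX genes and 22.5% of all tested genes. Hoxa11 and Hoxc11 did not pass after adjustment (limma, Benjamini-Hochberg adjusted p = 0.185 and 0.178). The Hoxc11 probe lies in the homeobox, and whether it also binds a paralogue's transcript was not tested. Paralogue 10 ran the other way in part, with -0.21 for Hoxc10, 0.02 for Hoxa10 and 0.27 for Hoxd10. All 3 tested genes of paralogue 13 had a larger ratio on array 2 than on array 1. Differences between clusters and between positions were not tested, and no order of the clusters is drawn from these medians.

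The non-coding transcripts of the HOX clusters were measured by 8 probes for 7 transcripts, of which 6 were tested and 0 passed in limma's fit, beside 3.79% of all tested genes. At an unadjusted p of 0.05, 2 of the 6 passed, Hoxaas3 and Hoxb5os, beside 22.5% of all tested genes. Hoxaas3 had ratios of 0.39 and 0.48 (limma, Benjamini-Hochberg adjusted p = 0.0615), but by the files' coordinates its probe lies between the Hoxa6 and Hoxa7 probes on the minus strand, the strand of the Hoxa gene probes, so transcripts of the sense strand cannot be told apart from it. Hoxb5os had 0.45 and 0.38 (adjusted p = 0.0678 in the same fit), with a probe between those of Hoxb6 and Hoxb7 on the strand opposite to the Hoxb gene probes. The other 4 had mean log2 ratios of 0.18 for Hoxaas2, 0.18 for Hoxa11os, 0.14 for Hoxd3os1 and -0.16 for Haglr, which lies in the Hoxd cluster. The Hoxaas2 probe overlaps a Hoxa3 probe by 40 bases on the opposite strand. Hottip, at the 5′ end of the Hoxa cluster, was not well above background often enough to be tested.

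None of the listed genes that work with HOX proteins or flank their clusters passed. Of the 9 TALE-class cofactor genes, all tested, 0 passed, beside 3.79% of all tested genes, with a median log2 ratio of 0.13. An unadjusted p under 0.05 was found for 2 of the 9, a share near the 22.5% of all tested genes, namely Meis1 (0.43 and 0.21 on the arrays) and Meis2 (0.35 and 0.24). Of 12 tested upstream regulators and genes next to the clusters, 0 passed, 3 had an unadjusted p under 0.05, again near the share of all tested genes, and the median was -0.04. The smallest p-values there belonged to Snx10, near the Hoxa cluster, with a mean log2 ratio of -0.38 (limma, Benjamini-Hochberg adjusted p = 0.112), and Lnpk, beside the Hoxd cluster, with -0.26 (adjusted p = 0.191 in the same fit). Cdx1, Cdx2 and Cdx4, which activate central HOX genes in the early embryo, and Evx1 next to Hoxa13 were on the array and not above background often enough to be tested.

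Among 25 Polycomb and Trithorax genes, 2 were higher and 0 lower in mutant RNA, beside 1.76% of all tested genes higher and 2.03% lower, with a median log2 ratio of 0.17. In the same list 5 genes lay below 0 on both arrays without passing, down to a mean of -0.40 for Pcgf1. Of the 2 higher genes, 1 was Cbx6, a chromobox subunit of Polycomb repressive complexes. Cbx6 had 0.42 on array 1 and 0.84 on array 2, with a mean of 0.63 ± 0.30 (SD, n = 2 arrays; limma, Benjamini-Hochberg adjusted p = 0.0391). Of 17 tested genes of the retinoic acid pathway and of the kidney programme downstream of Hox11, 1 passed, beside 3.79% of all tested genes. Gdnf, the growth factor of the metanephric mesenchyme and a known target of Hox11 with Eya1 and Pax2, had ratios of 0.43 and 0.64 and a mean of 0.54 ± 0.15 (SD, n = 2 arrays; limma, Benjamini-Hochberg adjusted p = 0.0407). Its probe was dim, with log2 signals of 7.13 and 7.55 in mutant RNA, against 6.69 and 6.91 in control RNA, though well above background in each channel. Six2 and Itga8, also known as Hox11 targets in the kidney, had 0.02 and 0.19 for Six2 and -0.51 and -0.31 for Itga8. Eya1 had -0.41 and -0.34 and Pax2 had -0.35 and -0.25. None of these 4 passed, and they were named for this known link after their values were seen. The retinoic acid binding protein Crabp1 had -0.41 and -0.38 (limma, Benjamini-Hochberg adjusted p = 0.0756).

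**Figure D4:**
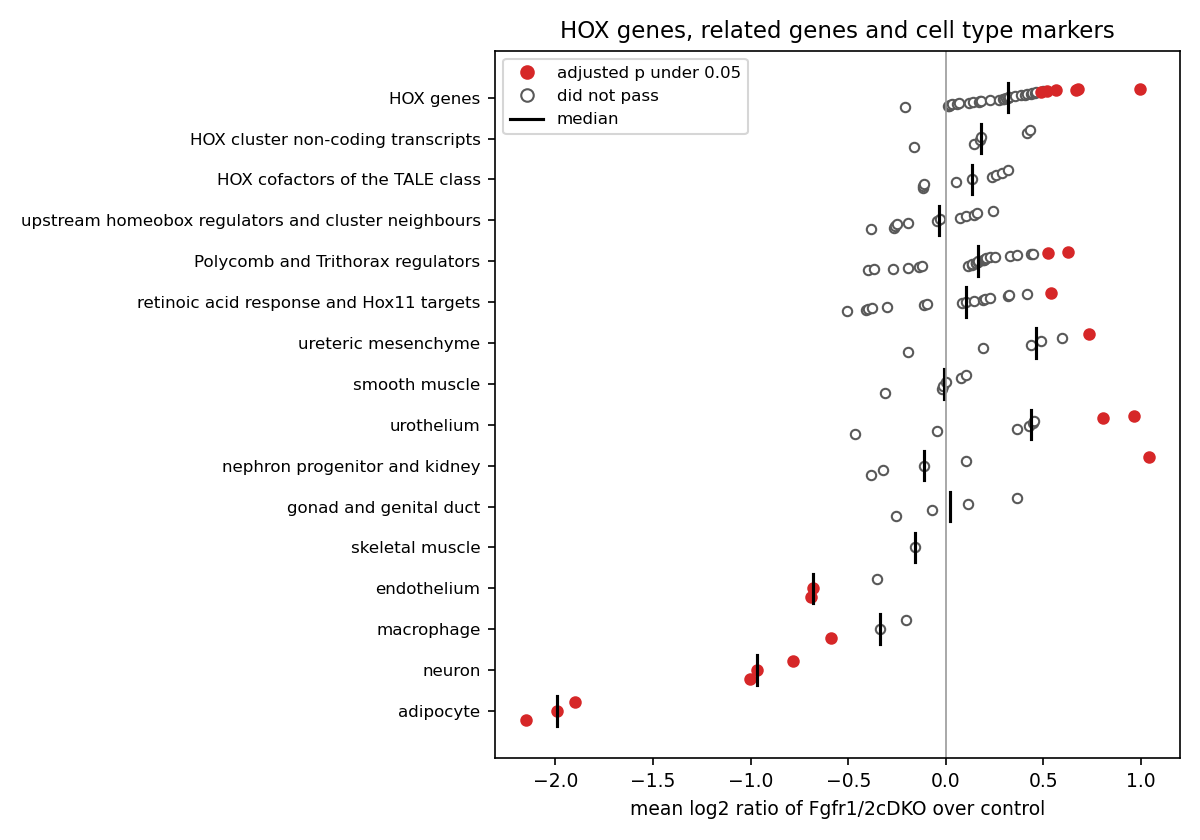
Mean log2 ratio of Fgfr1/2cDKO over control (horizontal axis) of each tested gene in the HOX set, in 5 related lists and in 10 cell type marker lists (vertical axis). Filled points have an adjusted p under 0.05, open points do not, and the bar is the list median, which is 0.32 for HOX genes, 0.44 for urothelium, -0.01 for smooth muscle and -1.99 for adipocyte markers.

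Markers of the cell types in the explant moved beside the HOX genes. The 6 smooth muscle markers, among them Acta2 and Myh11, and the 8 urothelial markers, among them Upk1a and Cdh1, were all measured, which fits the ureter label. The summed normalised signal of the smooth muscle markers was 505000 and 523000 in mutant RNA, against 504000 and 514000 in control RNA. In limma's fit 0 of 6 passed, beside 3.79% of all tested genes, and 0 of 6 at an unadjusted p of 0.05, beside 22.5%. The smallest p there belonged to Des, with a mean log2 ratio of -0.31, and Myh11, with 0.11. Ureteric mesenchyme markers summed to 71300 and 96900 in mutant RNA, against 65500 and 68400 in control RNA, with 1 of 6 higher (Sox9, mean log2 ratio 0.73), beside 1.76% of all tested genes, and a list median of 0.46. Bmp4 of this list lay below 0 on both arrays, at -0.29 and -0.09, and did not pass. Urothelial markers summed to 250000 and 299000 in mutant RNA, against 181000 and 180000 in control RNA, with a median of 0.44. Of these 8, 2 were higher, Upk1a (0.97) and Cdh1 (0.80), beside 1.76% of all tested genes. Krt5 of the urothelial list had -0.25 and -0.68 and Epcam 0.0005 and -0.09, and neither passed. Tshz3, a mesenchymal factor needed for smooth muscle, had 0.34 and 0.64 and did not pass.

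Other cell types had lower signals in mutant RNA. Beside the counts below, 2.03% of all tested genes were called lower and 1.76% higher, and 22.5% had an unadjusted p under 0.05. Adipocyte markers (Adipoq, Fabp4 and Cidec) summed to 15800 and 4300 in mutant RNA, against 34600 and 32200 in control RNA, and all 3 were lower. Neuron markers (Stmn2, Prph and Dbh) summed to 1550 and 1710 in mutant RNA, against 2820 and 3510 in control RNA, and all 3 were lower. Endothelial markers summed to 1990 and 2030 in mutant RNA, against 3120 and 3050 in control RNA, with Cdh5 and Esam lower of 3. Macrophage markers summed to 29100 and 18700 in mutant RNA, against 32200 and 25400 in control RNA, with C1qa lower of 3. Adgre1, another macrophage marker, had 0.04 on array 1 and -0.71 on array 2. Of the kidney markers, 1 of 5 tested was called higher, Umod, which was well above background in both mutant channels and in 0 control channels and so could enter the test only where it was high, and Lhx1 had -0.38. Of other tissues, 0 of 4 tested gonad and genital duct markers passed in limma's fit (2 at an unadjusted p of 0.05, Emx2 with 0.37 and Nr5a1 with -0.26), and of 3 skeletal muscle markers only Myod1 was tested, with -0.16. The part of these shifts in cell type signals in the HOX ratios was not tested.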

How the data were processed

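Total RNA of 2 mutant and 2 control samples was measured on 2 two-colour Agilent arrays. The HOX genes follow from their names alone, and the members and the other lists were chosen with earlier results of these data known. The submitters' processing notes name Agilent Feature Extraction 10.7.3.1, whose deposited files hold the mean intensity of each spot and the median around it. The log10 ratios of red over green were computed by the same software from background-subtracted, dye-normalised signals, per the file headers. The authors' deposited value table gives each probe a score that reads as a fold change with a sign, without values between -1 and 1 (median 1 on both arrays). Set against the scanner ratios its direction is mutant over control (r = 0.84 and 0.85 on the log2 scale across probes), and its averaging and centring are unknown.

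Mean and background signals were corrected by normexp with an offset of 50 and normalised by loess within arrays in limma 3.58.1 (R 4.3.3). Outlier spots were left out (3.17% and 3.65%) and the 4 spots of a probe averaged. Names came from RefSeq GRCm38.p6 by accession for 28328 of 39429 probes and by symbol for 3400, while 7701 kept their name in the file. Of 45 HOX probes, 44 carried an accession that gives the same symbol. A probe was tested if over 0.5 of its used spots were well above background in both mutant channels or in both control channels. This kept 28915 probes and, with the brightest probe per gene, 22070 genes. Log2 ratios of mutant over control, with dyes as labelled, were tested against 0, two-sided, with limma's lmFit and eBayes (1 residual and 7.45 prior degrees of freedom) and Benjamini-Hochberg adjustment over all genes. Signals per channel are loess and Aquantile normalised log2 values. Signals of different probes are not compared, and the number of arrays limits the precision.

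Full values are given for each HOX gene called and, per cluster, for the 2 genes with the smallest p and the tested genes of lowest and highest number. From other lists, genes called and the 2 with the smallest p were named. Some items these rules would name are not reported here. Tested on simulated data, the same model recovered nearly all large changes but a minority of the smallest changes simulated. Most HOX ratios were smaller than these, and recovery at their size was not simulated. The model also made more false calls than the adjusted p aimed at. Alternatives covered background correction, normalisation, the value table, the filter on dim probes, the choice of probe, variance estimates, separate channels and leaving out each array. Figures were drawn with matplotlib 3.10.9.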

Additional observations from a re-analysis of the deposited data

How the results depend on the processing

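All 6 HOX genes called stayed above 0 in all 10 other settings and on each array alone, but the calls did not stay. The 6 were picked from the same 2 arrays that every setting uses, so their sign there is no independent check. With the scanner software's ratios, 10 genes passed in limma's fit (5 higher and 5 lower), 0 of them HOX genes, and the HOX median was 0.35. At an unadjusted p of 0.05, 20 of 35 HOX genes passed there, beside 4621 of all 22070 genes. With median centring 0 genes passed, 0 higher and 0 lower, and the HOX median was 0.15. At an unadjusted p of 0.05, 5584 of all 22070 genes and 8 of 35 HOX genes passed there, a HOX share no higher than that of all genes. With the values of the authors' own table, 170 genes passed (79 higher, 91 lower), of the HOX genes 1, Hoxb8, and the HOX median was 0.34. With a variance trend 1415 passed (688 higher, 727 lower), 11 of them HOX genes. With separate channels and no replicate block, a fit that leaves out the pairing by array, 3 genes passed (2 higher, 1 lower). Of the HOX genes, 0 passed in that fit (17 of 35 at an unadjusted p of 0.05, beside 2314 of all 22070 genes). Without the filter on dim probes 5 of 39 HOX genes passed, beside 713 of all 30011 genes (2.38%), and the HOX median over 39 genes was 0.30. Without background correction Hoxa7 passed and Hoxd13 did not, and with the mean over a gene's probes Hoxa7 passed and Hoxb3 did not. With 1 array left out there is no residual degree of freedom and no test: the HOX median was 0.28 to 0.30. Over the 10 other settings that use both arrays, cluster medians ranged from 0.01 to 0.22 for Hoxa and 0.21 to 0.44 for Hoxb. They ranged from 0.13 to 0.34 for Hoxc and 0.32 to 0.58 for Hoxd. On array 1 alone the Hoxc median was 0.11, below that range. Why calls changed was not tested.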
